A study of Homo sapiens with 6 samples.

Results

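The genes described here encode the proteasome: 40 rows of an expression table, taken by a list of gene symbols (PSMA1 to PSMA7, 6 PSMB genes, PSMC1 to PSMC6, 14 PSMD genes, PSME1 to PSME4, PSMF1, PSMG1 and PSMG2), out of 28058 genes. The table comes from MDA-MB-231, an established human line of triple-negative breast adenocarcinoma cells, grown in DMEM with serum. Knockdown cells carried a short hairpin RNA against the heat shock factor HSF1 (shHSF1, n = 3 libraries), and control cells carried a control hairpin (shCTL, n = 3 libraries, named shScr in the table). All 6 libraries are of this single line. The labels state neither the hairpin sequences nor whether replicates are separate cultures or clones, and the letters TGL and cl in the table's column names are unexplained, so the spread behind each p-value is that of the libraries and may be purely technical. Levels are in RPKM, reads per kilobase of gene and per 1000000 reads assigned to genes, and a library held 33988307 to 70449758 assigned reads.

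The proteasome is the chamber in which cells destroy proteins that carry ubiquitin chains. Its 20S core is a stack of rings, with alpha subunits forming the outer gates and beta subunits the inner rings that hold the cutting sites. The 19S particle caps the core: its base contains a ring of ATPases that unfold and thread the substrate, and its lid removes the ubiquitin chain. Assembly chaperones build its parts and then leave, activators such as PA28 can take the place of the cap, and tumour cells with a high load of misfolded protein are known to depend on the whole machine. HSF1 drives the transcription of chaperone genes when proteins misfold, while the factor NRF1 (encoded by NFE2L1) is known to raise proteasome genes together when proteasome activity falls.

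HSF1 itself (chromosome 8, 144291569 to 144314726 of hg38) had 5.01, 4.70 and 3.84 RPKM in the shHSF1 libraries, against 61.2, 53.3 and 47.9 RPKM in the shCTL libraries. This is a log2 fold change of -3.44 with SE 0.123 (limma adjusted p = 3.78e-06), and an exact permutation test of the means gave its lowest possible two-sided p, 0.1. Of 8 epithelial markers, 3 were under 1 RPKM in both groups, among them CDH1 at a mean of 0.0280 RPKM in shHSF1 and 0.0230 RPKM in shCTL. The other epithelial markers differed both ways, with KRT18 at 204 RPKM in shHSF1 and 282 RPKM in shCTL, EPCAM at 8.26 RPKM in shHSF1 and 4.62 RPKM in shCTL, and KRT7 at 4.58 RPKM in shHSF1 and 0.667 RPKM in shCTL. Vimentin (VIM), a mesenchymal protein for which this line is known, averaged 2076 RPKM in shHSF1 and 1903 RPKM in shCTL. The leukocyte marker PTPRC stood at 0.0141 RPKM in shHSF1 and 0.0250 RPKM in shCTL, and 4 of 5 leukocyte, 4 of 5 fibroblast and 3 of 3 endothelial markers were under 1 RPKM in both groups. The remaining leukocyte marker, the lysosomal protein CD68, stood at 94.0 RPKM in shHSF1 and 77.5 RPKM in shCTL. The part of these differences in the results was not tested.

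Of the 40 proteasome genes, 9 passed the test between shHSF1 and shCTL without pairing of the libraries and 22 passed with it, in both directions. PSMB5, a catalytic subunit, PSMD5 and PSMD10, chaperones of cap assembly, and PSMD1, a cap scaffold, were lower in shHSF1 in the unpaired test. The core alpha subunits PSMA3 and PSMA4, the ATPase PSMC1, the lid subunit PSMD7 and the PA28 subunit PSME1 were higher. All 40 genes passed the filter on low values (at least 0.5 RPKM in at least 3 libraries), as did 12433 genes in all. With limma on log2(RPKM + 0.5) and a Benjamini-Hochberg adjusted p under 0.05 over all tested genes, 5 of the 40 (12.5%) were called higher, where 17.7% of all tested genes were. Another 4 (10%) were called lower, where 16.1% of all tested genes were, and 31 did not pass. In either direction 22.5% of the proteasome genes were called, where 33.8% of all tested genes were. The order of these shares turned round with the replicate number as a block (55% of the proteasome genes, where 48.3% of all tested genes were called) and without library shHSF1 3 (40%, where 34.7% were).

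The median absolute log2 fold change was 0.198 for the 40 genes and 0.229 for all tested genes. The median log2 fold change of the 40 genes was 0.15, against 0.04 for all tested genes, and single genes ran between -0.85 (PSMD5) and 0.76 (PSMA4). Of the 40, 4 (10%) differed by more than 0.5 on the log2 scale, where 20.4% of all tested genes did. These shares were not matched for expression level. Less than 0.3 was seen in 33 of the 40, and the quartiles over all tested genes were -0.20 and 0.25. The estimates were tight, with a median standard error of 0.092 over the proteasome genes and 0.11 over all tested genes, and no proteasome gene had fewer than 1278 reads in any library. In 18 of the 40 genes the groups did not overlap, 13 with every shHSF1 library above every shCTL library and 5 with every one below. Over all tested genes 47.4% had groups that did not overlap, 25.6% in the higher direction and 21.8% in the lower. In these bulk libraries, fewer cells and less RNA per cell cannot be told apart.

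**Figure D1:**
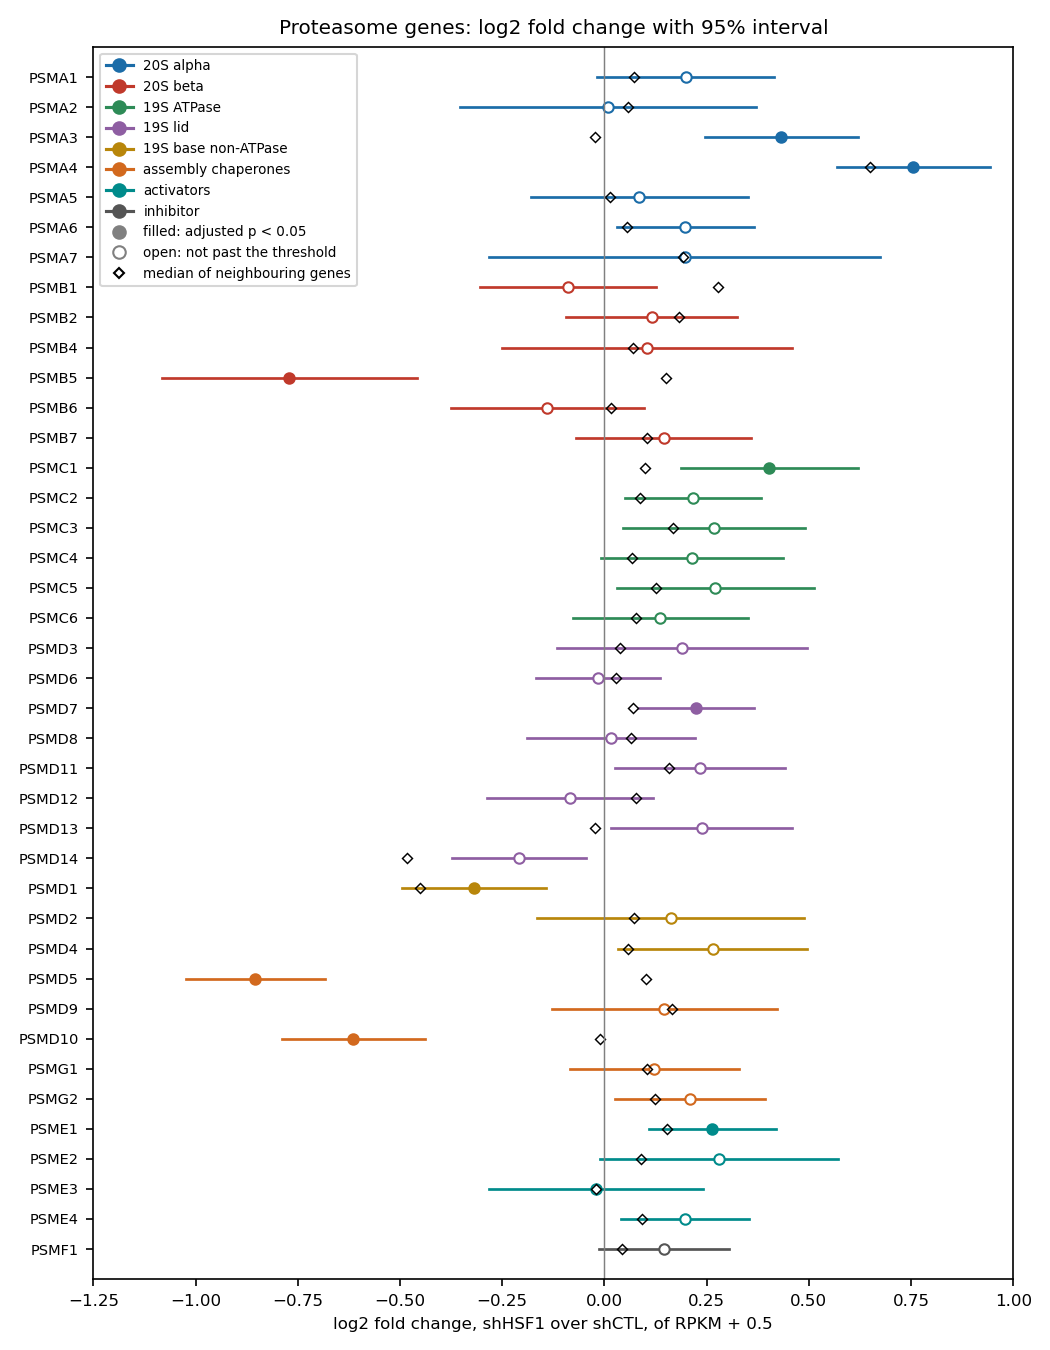
Log2 fold change of RPKM + 0.5, shHSF1 over shCTL, of the 40 proteasome genes, with 95% intervals from limma, coloured by role. Filled circles passed the adjusted threshold of 0.05, open circles did not, and diamonds give the median log2 fold change of up to 40 neighbouring tested genes. PSMB5, PSMD5 and PSMD10 stand at -0.77, -0.85 and -0.61 although their neighbours lie near 0, while PSMA4 at 0.76 lies close to its neighbours at 0.65.

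Same-numbered libraries of the groups deviated together, with correlations of 0.468, 0.307 and 0.451 for replicates 1, 2 and 3. The unpaired test left this out. Unless the block is named, calls, standard errors, intervals and adjusted p-values come from fits without the pairing. With the replicate number as a block, 17 of the 40 genes were called higher (42.5%, against 26.2% of all tested genes) and 5 lower (12.5%, against 22.1%). The 12 additional higher calls were PSMA1, PSMA6, PSMC2 to PSMC5, PSMD4, PSMD11, PSMD13, PSMG2, PSME2 and PSME4, with log2 fold changes from 0.20 to 0.28, and the additional lower call was PSMD14. Library shHSF1 3 was low in many of these genes: without it, 12 genes were called higher and the median of all 40 was 0.22, with 19.1% of all tested genes called higher and a median of 0.06 over them. Without shHSF1 1, shHSF1 2, shCTL 2 or shCTL 3 the higher calls numbered 3, with 12.9%, 11.1%, 14.2% and 11.3% of all tested genes called higher. Without shCTL 1 they numbered 7, with 14.9% of all tested genes.

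Some of the genes lie in stretches of chromosome whose genes had fold changes shifted to one side. Each gene was therefore also set against the median log2 fold change of up to 40 tested neighbours, 20 on each side. After this centring 3 proteasome genes were higher (7.5%, against 12.6% of all tested genes) and 4 lower (10%, against 14.5%). PSMA3, PSMC1, PSMB5, PSMD5 and PSMD10 remained called in the same direction. PSMA4, PSMD7, PSME1 and PSMD1 were no longer called, while PSMB1 was called lower and PSMD14 higher. With centring and the block together, 6 were higher, PSMD7 among them (15%, against 20.5% of all tested genes), and the same 4 lower (10%, against 21.7%).

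In the alpha rings, the gates of the 20S core, all 7 genes had positive log2 fold changes, as had 6882 of the 12433 tested genes. Of the 7, 2 were called higher (28.6%, against 17.7% of all tested genes). The median was 0.20 (0.11 after centring, with 1 called). PSMA1, PSMA2, PSMA5 and PSMA7 lay between 0.01 and 0.20 and their groups overlapped. PSMA3 (chromosome 14, 58244805 to 58272009, plus strand) had 168, 156 and 155 RPKM in shHSF1, against 128, 109.7 and 118 RPKM in shCTL. Every shHSF1 library was above every shCTL library. The means were 159.7 ± 7.27 RPKM in shHSF1 and 118 ± 9.09 RPKM in shCTL (SD, n = 3 each), a ratio of 1.35 (log2 fold change 0.43, SE 0.080, limma adjusted p = 0.00511). This call held in all 18 alternatives, and the neighbours of PSMA3 had a median of -0.02.

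PSMA4 (chromosome 15, 78540405 to 78549262, plus strand) showed the largest positive difference of the 40 genes. It had 163, 149 and 165 RPKM in shHSF1, against 95.1, 87.0 and 99.7 RPKM in shCTL. The groups were far apart, with the lowest shHSF1 library well above the highest shCTL library. Its means were 159 ± 8.99 RPKM in shHSF1 and 93.9 ± 6.40 RPKM in shCTL (SD, n = 3 each), a ratio of 1.69 (log2 fold change 0.76, SE 0.080, limma adjusted p = 0.000427). Its neighbours on chromosome 15 had a median of 0.65, and relative to them the log2 fold change was 0.11 (limma adjusted p = 0.365, and 0.122 with the block). PSMA6, the next in size with its groups apart, had a log2 fold change of 0.20 and did not pass (limma adjusted p = 0.0704, and 0.0226 with the block). PSMA7, the most abundant alpha gene, had 264, 253 and 163 RPKM in shHSF1 and 241, 178 and 169.5 RPKM in shCTL, a spread that leaves an unpaired 95% interval of -0.28 to 0.67. With the block the PSMA7 interval was -0.05 to 0.44. PSMA2 had a log2 fold change of 0.01 with an interval of -0.35 to 0.37.

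In the beta rings, which hold the cutting sites, 1 of 6 genes was called lower (16.7%, against 16.1% of all tested genes). The median was 0.01 (-0.02 with voom on the recovered reads and -0.11 after centring). PSMB5 encodes the chymotrypsin-like catalytic subunit, the main target of the drug bortezomib. It lies on chromosome 14 from 23025851 to 23035220, minus strand. PSMB5 had 44.8, 43.3 and 32.7 RPKM in shHSF1, against 76.9, 67.4 and 61.7 RPKM in shCTL. All shHSF1 libraries were below all shCTL libraries, and within each pair of the same number the shHSF1 library was lower. The means were 40.3 ± 6.56 RPKM in shHSF1 and 68.7 ± 7.66 RPKM in shCTL (SD, n = 3 each), a ratio of 0.586 (log2 fold change -0.77, SE 0.13, limma adjusted p = 0.00393). The call held in all 18 alternatives, and the neighbours of PSMB5 had a median of 0.15.

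The same PSMB5 values can be given as a share of the 6 listed beta genes, which leave out PSMB3. PSMB5 made up 6.37%, 6.74% and 6.01% of their summed RPKM in shHSF1, against 10.9%, 10.9% and 10.1% in shCTL. This share and the rank below restate the difference in PSMB5 and are not further evidence of it. In the order of all 40 levels it stood 34th in shHSF1 and 22nd in shCTL. The other catalytic subunits did not pass the test. PSMB6, the caspase-like subunit, had a log2 fold change of -0.14 (interval -0.38 to 0.10), and PSMB7, the trypsin-like subunit, had 0.14 (interval -0.07 to 0.36). Exons of PSMB7 overlap those of LOC100129034 on the opposite strand over 389 of 1015 bases, and the strand setting of the counting is unknown here, so reads of the pair could not be told apart. The structural beta genes PSMB1, PSMB2 and PSMB4 had log2 fold changes of -0.09, 0.12 and 0.10. Of these PSMB1 lies among genes with a median of 0.28 and was called lower after centring (log2 fold change -0.37, limma adjusted p = 0.0226).

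**Figure D2:**
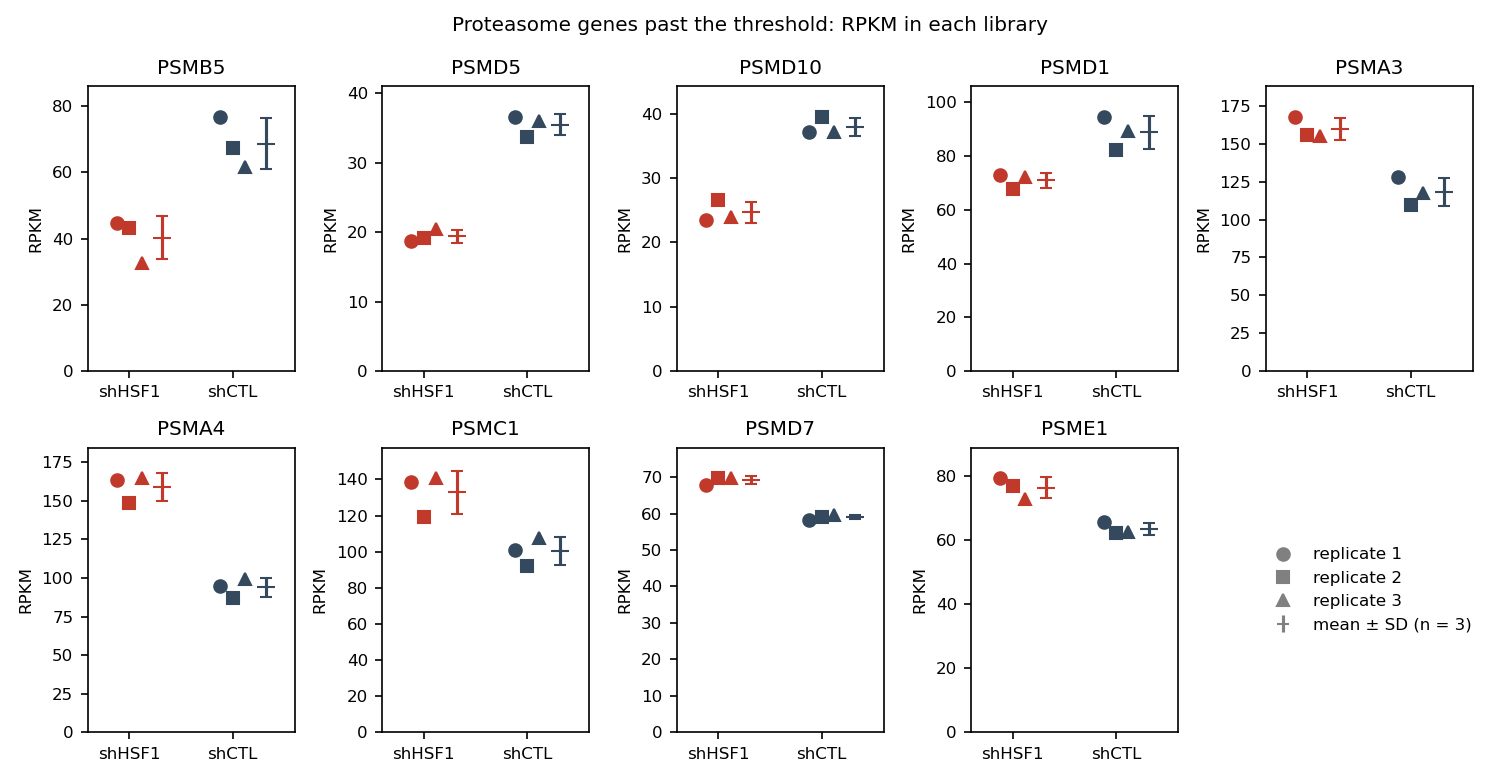
RPKM of the 9 proteasome genes past the threshold in each of the 3 shHSF1 and 3 shCTL libraries, with symbols for the replicate number and bars for mean ± SD (n = 3). The groups do not overlap in any of the 9 panels, with PSMB5 at 32.7 to 44.8 RPKM in shHSF1 and 61.7 to 76.9 RPKM in shCTL.

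In the ATPase ring of the cap, which unfolds substrates, 1 of 6 genes was called higher (16.7%, against 17.7% of all tested genes). All 6 genes had positive log2 fold changes, as had 30 of the 40 proteasome genes and 6882 of the 12433 tested genes. The median of the 6 was 0.24 (0.14 after centring). PSMC1 (Rpt2, chromosome 14, 90256550 to 90272625, plus strand) was called, with 138, 119 and 141 RPKM in shHSF1, against 101, 92.0 and 108 RPKM in shCTL. Its groups did not overlap. Means were 133 ± 11.8 RPKM in shHSF1 and 100.3 ± 7.90 RPKM in shCTL (SD, n = 3 each), a ratio of 1.32 (log2 fold change 0.40, SE 0.094, limma adjusted p = 0.0132, and 0.0467 after centring). The other 5, PSMC2 to PSMC6, lay between 0.14 and 0.27 and did not pass. PSMC2 came closest, with 44.2, 41.3 and 43.5 RPKM in shHSF1, against 38.8, 34.7 and 37.4 RPKM in shCTL (limma adjusted p = 0.0509). With the block, PSMC2, PSMC3, PSMC4 and PSMC5 were called higher (limma adjusted p = 0.0135, 0.012, 0.0253 and 0.0093) and PSMC6 was not (0.0839). After centring, with or without the block, PSMC1 was the only ATPase gene called. Exons of PSMC5 share 105 of 1600 bases with FTSJ3.

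In the lid, 1 of 8 genes was called higher (12.5%, against 17.7% of all tested genes) and the median was 0.10. PSMD7 (Rpn8, chromosome 16, 74296775 to 74306288, plus strand), the partner of the deubiquitinase PSMD14, had 67.8, 69.7 and 69.7 RPKM in shHSF1, against 58.4, 59.2 and 59.6 RPKM in shCTL. The libraries of each group lay close together and the groups did not overlap. Its means were 69.1 ± 1.09 RPKM in shHSF1 and 59.0 ± 0.631 RPKM in shCTL (SD, n = 3 each, log2 fold change 0.22, SE 0.060, limma adjusted p = 0.0238). This small difference lost its call without shHSF1 1 (limma adjusted p = 0.0534), shHSF1 2 (0.0948), shCTL 1 (0.0607), shCTL 2 (0.0565) or shCTL 3 (0.0899). It was also lost with voom (0.069), with median scaling (0.0582) and after centring (0.0948), and was made again with centring and the block together (0.0416).

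PSMD14 (Rpn11), the metalloprotease that cuts ubiquitin chains off the substrate, had opposite signs before and after centring. It had 95.5, 93.1 and 88.4 RPKM in shHSF1, against 112, 101 and 107 RPKM in shCTL, so the groups did not overlap. The log2 fold change was -0.21 (limma adjusted p = 0.0542, and 0.0181 with the block). PSMD14 lies on chromosome 2 among genes with a median of -0.48, and relative to these its log2 fold change was 0.27 (limma adjusted p = 0.0252). Among the other lid genes PSMD3, PSMD11 and PSMD13 had log2 fold changes of 0.19, 0.23 and 0.24, and PSMD11 and PSMD13 passed with the block (limma adjusted p = 0.0169 and 0.0175). PSMD12 had -0.09, and PSMD6 and PSMD8 were the flattest, with intervals of -0.17 to 0.14 and -0.19 to 0.22.

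Of the base genes without ATPase activity, PSMD1 was called lower and PSMD2 and PSMD4 were not called. PSMD1 (Rpn2, chromosome 2, 231056864 to 231172826, plus strand) is a large scaffold that docks other cap proteins. It had 72.9, 67.9 and 72.4 RPKM in shHSF1, against 94.8, 82.4 and 89.3 RPKM in shCTL. Every shHSF1 library was below every shCTL library. The means were 71.1 ± 2.78 RPKM in shHSF1 and 88.8 ± 6.18 RPKM in shCTL (SD, n = 3 each, log2 fold change -0.32, SE 0.076, limma adjusted p = 0.0149). Its neighbours on chromosome 2 had a median of -0.45, and relative to them PSMD1 stood at 0.13, not called (limma adjusted p = 0.246). The call was also lost without shHSF1 2 (limma adjusted p = 0.0674) or shCTL 3 (0.0618). PSMD2 (Rpn1), a docking site for shuttle factors and the most abundant of the 40 genes at 269 RPKM in shHSF1 and 241 RPKM in shCTL, had a log2 fold change of 0.16 (interval -0.16 to 0.49). PSMD4 (Rpn10), a ubiquitin receptor, had 0.26 (limma adjusted p = 0.0778, and 0.0127 with the block).

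The 5 assembly chaperones among the 40 genes held 2 of the 4 genes called lower (40% of the 5, against 16.1% of all tested genes). Their median was 0.12 (-0.02 after centring). The share depends on which chaperones were listed. Assembly factors outside the 40, POMP, PSMG3, PSMG4 and PAAF1, were not called (limma adjusted p = 0.578, 0.566, 0.43 and 0.738). They had log2 fold changes of 0.085, 0.099, 0.11 and -0.047. PSMD5 (S5b) binds an ATPase module while the base is being built. The gene lies on chromosome 9 from 120816054 to 120843021, minus strand. PSMD5 had 18.6, 19.1 and 20.5 RPKM in shHSF1, against 36.6, 33.7 and 36.0 RPKM in shCTL. The shHSF1 libraries sat close together, far below the shCTL libraries. Means were 19.4 ± 0.949 RPKM in shHSF1 and 35.5 ± 1.53 RPKM in shCTL (SD, n = 3 each), a ratio of 0.547 (log2 fold change -0.85, SE 0.073, limma adjusted p = 0.000157), and the call held in all 18 alternatives. Its neighbours had a median of 0.10.

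PSMD10 (gankyrin, chromosome X, 108084205 to 108091644, minus strand) escorts another ATPase module of the base and is also known to bind cell-cycle proteins. It had 23.5, 26.5 and 23.9 RPKM in shHSF1, against 37.1, 39.6 and 37.1 RPKM in shCTL. Again the groups were well apart. The means were 24.6 ± 1.63 RPKM in shHSF1 and 37.9 ± 1.41 RPKM in shCTL (SD, n = 3 each), a ratio of 0.649 (log2 fold change -0.61, SE 0.075, limma adjusted p = 0.00082), with a neighbour median of -0.01 and a call in all 18 alternatives. PSMD9, the remaining chaperone of the base among the 40 genes, had a log2 fold change of 0.15 (interval -0.13 to 0.42). PSMG1 and PSMG2, which pair up to build the alpha ring, had 0.12 and 0.21, and PSMG2 passed only with the block (limma adjusted p = 0.0301).

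Among the activators, 1 of 4 genes was called higher (25%, against 17.7% of all tested genes). The median was 0.23 (0.11 after centring, with 0 called). PSME1 encodes the alpha subunit of PA28, a cap that opens the core without ubiquitin and is known to rise with interferon-gamma. It lies on chromosome 14 from 24136158 to 24138967, plus strand. PSME1 had 79.4, 76.9 and 72.9 RPKM in shHSF1, against 65.8, 62.3 and 62.5 RPKM in shCTL. All shHSF1 libraries were above all shCTL libraries. The means were 76.4 ± 3.28 RPKM in shHSF1 and 63.5 ± 1.97 RPKM in shCTL (SD, n = 3 each, log2 fold change 0.26, SE 0.067, limma adjusted p = 0.0191). The call was lost after centring (limma adjusted p = 0.262) and without shHSF1 1 (0.0678), shHSF1 2 (0.0746), shCTL 2 (0.0568) or shCTL 3 (0.0871).

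PSME2, the beta subunit of PA28, had a log2 fold change of 0.28 with 125, 108 and 89.4 RPKM in shHSF1, against 96.3, 82.1 and 84.7 RPKM in shCTL. Its groups overlapped (limma adjusted p = 0.127, and 0.0197 with the block). PSME3, the nuclear PA28-gamma, had -0.02 (interval -0.28 to 0.24), and PSME4, the nuclear activator PA200, had 0.20 (limma adjusted p = 0.0559, and 0.0211 with the block). The inhibitor PSMF1 (PI31, chromosome 20, 1113229 to 1172246, plus strand) was the least abundant of the 40 genes, with 16.7, 16.1 and 16.01 RPKM in shHSF1, against 14.6, 14.6 and 14.8 RPKM in shCTL. Its groups did not overlap, yet the difference did not pass (log2 fold change 0.15, SE 0.068, limma adjusted p = 0.14, and 0.083 with the block).

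Added up, the 40 genes gave totals that overlapped between the 2 groups and were higher in the shHSF1 library of each same-numbered pair (ratios 1.09, 1.17 and 1.04). Their summed RPKM was 3677 ± 305 in shHSF1 and 3341 ± 266 in shCTL (SD, n = 3 each), a ratio of 1.10. The alpha genes summed to 973, 907 and 785 RPKM in shHSF1, against 790.0, 680.4 and 679 RPKM in shCTL. That ring and the ATPase ring had the highest ratios, 1.24 and 1.20. The ATPase sums were 644, 582 and 599 RPKM in shHSF1, against 543, 457 and 516 RPKM in shCTL. The beta genes gave a ratio of 0.973, the assembly chaperones 0.933, the lid 1.05, the other base genes 1.07 and the activators 1.14. The alpha sum lay above that of the same-numbered control in every pair (ratios 1.23, 1.33 and 1.16). The same held for the ATPases (1.19, 1.27 and 1.16) and the lid (1.04, 1.10 and 1.01). It also held for the activators (1.13, 1.21 and 1.08) and PSMF1 (1.14, 1.11 and 1.08). The beta ratios fell on both sides of 1 (0.991, 1.03 and 0.888). PSMA4, at a log2 fold change of 0.76 with a neighbour median of 0.65, made up 18.1% of the alpha sum in shHSF1 and 13.2% in shCTL.

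**Figure D3:**
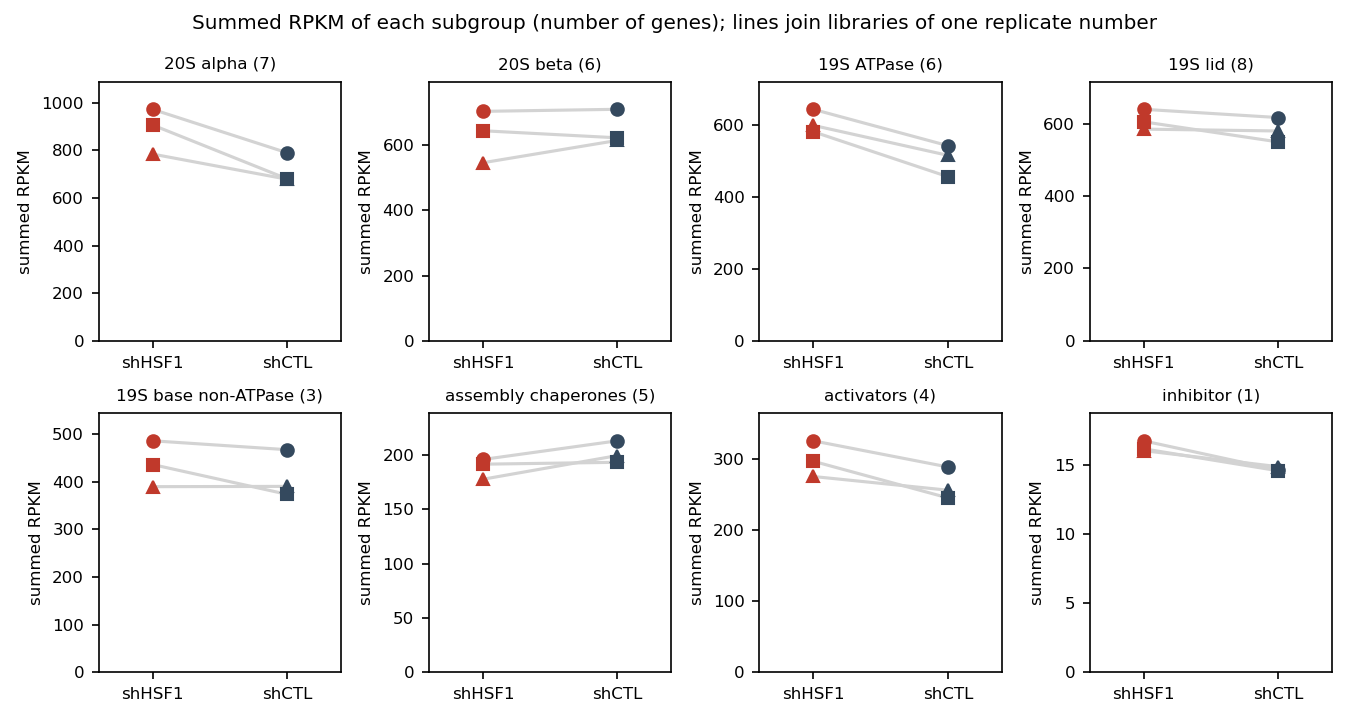
Summed RPKM of each role group in the shHSF1 and shCTL libraries, each axis starting at 0, with grey lines joining libraries of the same replicate number. The alpha, ATPase, lid, activator and inhibitor sums are higher in the shHSF1 library of each pair, and the assembly chaperone sums are lower. The lines of the beta genes and of the other base genes run both ways. In shHSF1 the alpha sums span 785 to 973 RPKM and the ATPase sums 582 to 644 RPKM.

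The order of the levels was largely shared. PSMD2, PSMA7 and PSMB4 led in both groups, and PSMF1 was lowest. The median of the 40 group means was 76.7 RPKM in shHSF1 and 78.9 RPKM in shCTL, against 9.04 RPKM in shHSF1 and 8.88 RPKM in shCTL for all tested genes. In each group 36 of the 39 pairs of neighbours in the order had overlapping libraries, so most single steps in it are not beyond the spread. Apart from PSMB5, the longest moves were those of PSMD14 (17th in shHSF1, 9th in shCTL), PSMA4 (6th in shHSF1, 13th in shCTL) and PSMD1 (23rd in shHSF1, 16th in shCTL).

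**Figure D4:**
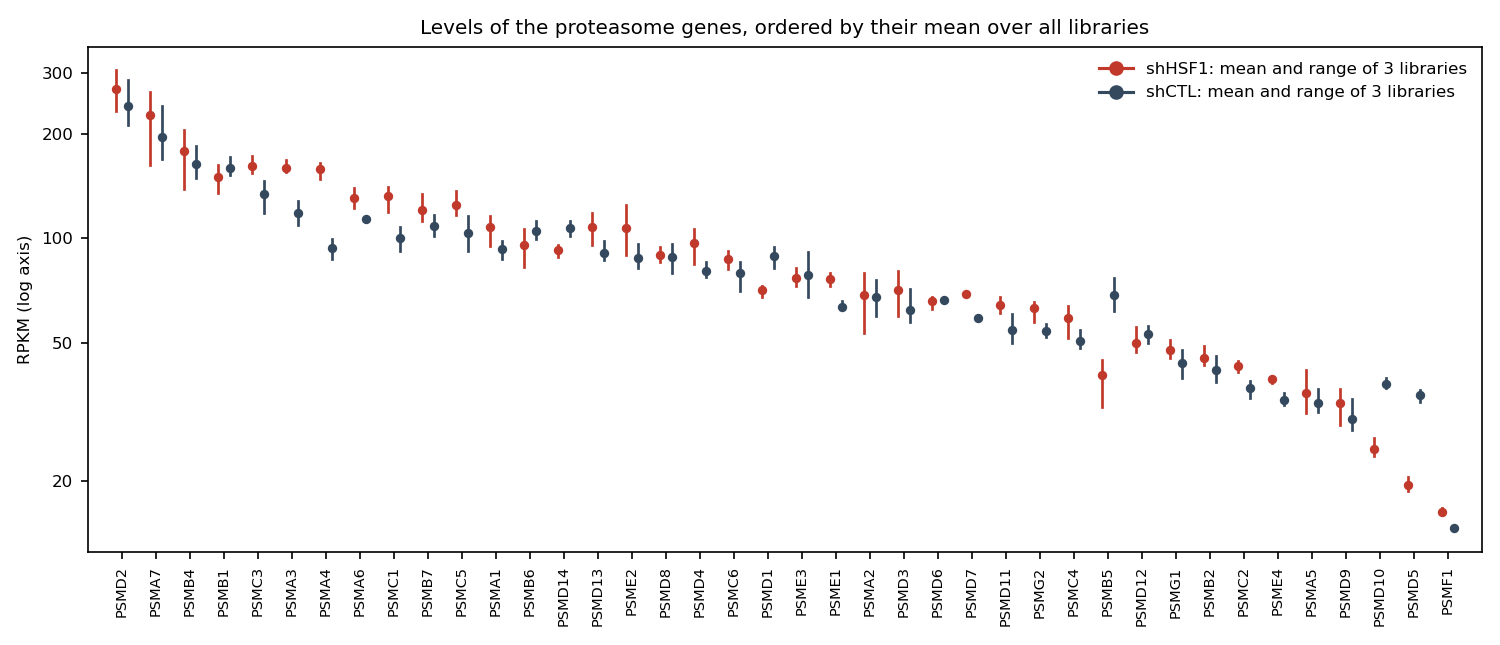
Mean RPKM of the 40 proteasome genes on a log axis in shHSF1 and shCTL, ordered by the mean over all libraries, with lines for the range of the 3 libraries. Levels run between 16.3 RPKM (PSMF1) and 269 RPKM (PSMD2) in shHSF1, and the largest gaps below the control are those of PSMB5, PSMD10 and PSMD5.

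Promoters were searched for letters known to bind HSF1 and the NRF factors, in RefSeq windows (GRCh38.p14) running 250 bases before to 50 after each listed gene start. Of the 40 genes, 35 had a window. The heat shock element was searched as paired units in either order, GAANNTTC or TTCNNGAA, each of which reads the same on both strands. It was found for 3 of the 35 genes (8.57%), PSMB5, PSMD5 and PSMD6, and for 16.2% of all symbols in the table. Its longer form of 3 units, searched on both strands, was in none of the 35 and in 0.608% of all symbols. An antioxidant response element in the loose form TGACNNNGC, to which NRF1 and NRF2 are known to bind, was found on either strand for 13 of the 35 (37.1%) and for 16.1% of all symbols. Its strict form TGACTCAGC was in none of the 35 and in 0.689% of all symbols. CCAAT boxes were found for 17 of the 35 (48.6%) and for 39.7% of all symbols. A match is a description of letters, not of a bound site.

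Of the genes past the threshold, the following 4 are shown with their matches because they hold a heat shock or antioxidant letter match before a listed start. Of these PSMD5 and PSMB5 were lower, and PSMA4 and PSME1 were higher. PSMD6, also with a heat shock match, had a log2 fold change of -0.02 (limma adjusted p = 0.881). PSMD10 and PSMD1, also called lower, hold no heat shock match. PSMD1 holds a loose antioxidant match that begins at base 40 after its listed start. A link between match and direction was not tested. Capitals mark the match, and each is written 5′ to 3′ on the strand of its gene.
PSMD5 heat shock match, chr9:120842949-120842978, minus strand, 45 bases before the listed start: atctcgcgaggTTCAGGAAagcgccccggg
PSMD5 antioxidant match, chr9:120843022-120843074, minus strand, 134 bases before: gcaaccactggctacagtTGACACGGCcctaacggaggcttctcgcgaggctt
PSMB5 heat shock match, chr14:23034967-23034996, minus strand, 85 bases before a listed start: aaatggctccaTTCCGGAAtagatttaata
PSMA4 antioxidant match, chr15:78540586-78540685, plus strand, 126 bases before: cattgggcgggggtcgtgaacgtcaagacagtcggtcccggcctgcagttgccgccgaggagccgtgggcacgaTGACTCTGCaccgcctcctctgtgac
PSME1 antioxidant match, chr14:24135994-24136157, plus strand, 86 bases before: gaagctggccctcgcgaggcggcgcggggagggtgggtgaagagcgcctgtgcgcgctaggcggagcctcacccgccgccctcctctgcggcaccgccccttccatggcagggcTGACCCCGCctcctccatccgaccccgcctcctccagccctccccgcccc
The match of PSMB5 also holds CCGGAA, letters known as the core of ETS factor sites. Both heat shock matches lie within exons of the deposited table's annotation, which begin further upstream than the listed starts. The stretch shown for PSMA4 lies outside exons, but downstream of the first base of PSMA4 in that annotation (78540405).

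Genes that work with the proteasome were taken as lists and described by counts and medians. Of 12 tested further subunits and partners, 0 were higher and 1 was lower, with a median of 0.11, against 17.7% higher, 16.1% lower and a median of 0.04 over all tested genes. The lower gene was SEM1, a small lid subunit, at 6.96 ± 0.984 RPKM in shHSF1 and 10.4 ± 0.696 RPKM in shCTL (SD, n = 3 each), a log2 fold change of -0.56 with limma adjusted p = 0.00768. Its call remained after centring (limma adjusted p = 0.00542). The SEM1 row covers 5065 exon bases between 96481626 and 96709891 on chromosome 7. Transcripts within it were not told apart, so the value may not be the level of the lid subunit alone. PSMB8 and PSMB9, which with PSMB10 replace the catalytic subunits in the immunoproteasome, were under the filter, and 87.5% of their annotated length lies on other contigs of the build. For PSMB3, the core subunit missing among the 40 genes, that share is 50% and its values ran between 0.0535 and 0.177 RPKM in the 6 libraries, too low to be read as the level of a core subunit. PSMB10 has no such copy and averaged 6.55 ± 2.32 RPKM in shHSF1 and 5.62 ± 1.00 RPKM in shCTL (SD, n = 3 each, limma adjusted p = 0.687).

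The next lists hold the ubiquitin side of the pathway and are read against the same 17.7% higher and 16.1% lower of all tested genes. Of 10 tested deubiquitinases, shuttle factors and ubiquitin ligases, 1 was higher and 0 were lower (median 0.06). UBE3A, a ubiquitin ligase that binds the cap, had 33.8 ± 2.60 RPKM in shHSF1 and 27.1 ± 1.19 RPKM in shCTL (SD, n = 3 each, log2 fold change 0.31, limma adjusted p = 0.0195). That call was lost after centring (limma adjusted p = 0.0999, and 0.0239 with centring and the block) and without shHSF1 2 (0.0546), shCTL 1 (0.0536) or shCTL 2 (0.0581). Of 6 ubiquitin genes and ubiquitin-activating enzymes, 0 were higher and 1 was lower (median -0.06). This was UBA6, an activating enzyme, at 23.9 ± 1.23 RPKM in shHSF1 and 32.4 ± 0.983 RPKM in shCTL (SD, n = 3 each, log2 fold change -0.43, limma adjusted p = 0.0030). For p97, the ATPase that pulls ubiquitinated proteins out of complexes, and its cofactors, 15 genes were tested, of which 2 were higher and 1 was lower (median -0.06). UFD1 and FAF1 had log2 fold changes of 0.49 and 0.37 (limma adjusted p = 0.00303 and 0.00331), and FAF2 had -0.38 (limma adjusted p = 0.00292, 0.254 after centring, and 0.14 with centring and the block).

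Among 11 NRF1 and NRF2 factors and partners, 4 were higher and 1 was lower, with a median of 0.10, against 17.7% higher, 16.1% lower and a median of 0.04 over all tested genes. NFE2L1, which encodes NRF1, had 90.3 ± 1.62 RPKM in shHSF1 and 71.0 ± 1.98 RPKM in shCTL (SD, n = 3 each, log2 fold change 0.34, limma adjusted p = 0.00461, and 0.00905 after centring). Its relative NFE2L3 had 0.43 (limma adjusted p = 0.00617), and the small MAF partners MAFG and MAFK had 0.57 and 0.47 (limma adjusted p = 0.00357 and 0.0043). The MAFK call was lost after centring (limma adjusted p = 0.0607) and was made with centring and the block together (0.0294). NFE2L2, which encodes NRF2 and lies on chromosome 2, had 41.3 ± 3.05 RPKM in shHSF1 and 51.1 ± 3.96 RPKM in shCTL (SD, n = 3 each, log2 fold change -0.30, limma adjusted p = 0.0303). Relative to its neighbours, whose median was -0.45, it stood at 0.14 and was not called (limma adjusted p = 0.263, and 0.0625 with the block). The call was also lost without shHSF1 1 (limma adjusted p = 0.0962), shHSF1 2 (0.101), shCTL 2 (0.08) or shCTL 3 (0.122).

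Among the HSF1-dependent chaperones 12 of 15 tested genes were lower and 0 higher, with a median of -0.46, where 16.1% of all tested genes were lower. HSPA1B, DNAJB1 and BAG3 were not called, and HSPA1A was not tested. HSPA1B had the lowest mean of the tested genes on this list, 0.803 RPKM over all libraries. HSPH1, the HSP110 chaperone, had a log2 fold change of -1.18, HSPB1, the small chaperone HSP27, -0.99, and the mitochondrial chaperones HSPE1 and HSPD1 -0.82 and -0.74. HSPE1 and HSPD1 lie on chromosome 2 and lost their calls after centring (limma adjusted p = 0.189 and 0.0699), when 8 of the 15 and 14.5% of all tested genes were lower. With centring and the block both were called lower (limma adjusted p = 0.018 and 0.01), as were 13 of the 15 and 21.7% of all tested genes. The 40 proteasome genes had 4 lower, 5 higher and a median of 0.15 in the same unpaired fit. The difference between these lists was not tested.

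**Figure D5:**
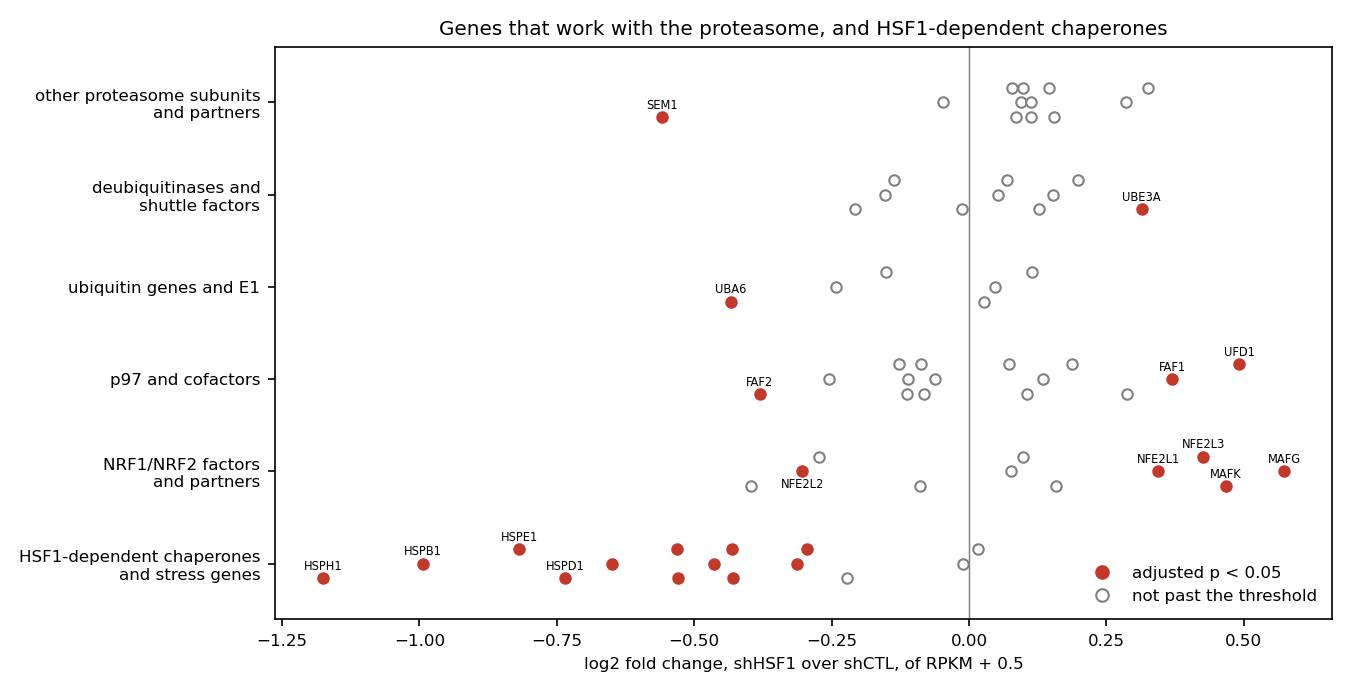
Log2 fold change of RPKM + 0.5, shHSF1 over shCTL, of every tested gene in 6 lists of genes that work with the proteasome or depend on HSF1. Filled points passed the adjusted threshold of 0.05 and open points did not. Of the chaperones 12 of 15 lie on the lower side past the threshold, while the lists around the proteasome hold 0 to 4 calls in a direction.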

How the data were processed

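Per the labels' protocols, the mRNA libraries were prepared with a KAPA kit. The authors deposited 1 table of RPKM values per gene. STAR, featureCounts and hg38 are named in the submitters' processing notes, while versions, annotation release and strand setting are not given in the sources used. Control columns are named shScr and were taken as shCTL, with the replicate numbers of the titles. RPKM times gene length summed to 1000000 in each library, and 100% of values were whole reads within 0.01. The recovered totals were 42615678, 38705161 and 33988307 reads for shHSF1 1 to 3 and 70449758, 39090930 and 36737836 for shCTL 1 to 3.

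The test was limma 3.58.1 (R 4.3.3) on log2(RPKM + 0.5) over the 12433 genes that reached 0.5 RPKM in 3 or more libraries, with a mean-variance trend, two-sided, with Benjamini-Hochberg adjustment over all tested genes and a threshold of 0.05. Fold changes on this scale understate those of low genes. The 40 genes and all lists were chosen with earlier results of these data known. All 40 are named, with values in each library for those past the threshold. From the other lists up to 4 genes per direction past the threshold are named, and others are named where a count or role called for it. Correlations of deviations from group means were 0.468, 0.307 and 0.451 for libraries of the same number and -0.370 to -0.0200 otherwise. Alternatives were the replicate block, pseudocounts of 0.1 and 1, other filters, median scaling, quantile normalization, voom on the recovered reads, no trend, a robust prior, centring on neighbouring genes and leaving out each library. On simulated data 23 of 50 genes changed 1.25-fold and 50 of 50 changed 1.5-fold were recovered, and 20 unchanged ones were called. The simulation gave every gene the same dispersion, with no effect of the replicate number and no shifted stretches of chromosome, unlike the real libraries. The share that would be recovered in the real libraries was not tested. Figures were drawn with matplotlib 3.10.9.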

Additional observations from a re-analysis of the deposited data

How the results depend on the processing

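The count of proteasome genes called higher was the result that depended most on the processing: 5 as reported, 17 with the replicate block, 3 with neighbour centring, and 3 to 12 with each library left out in turn (12 without shHSF1 3, 7 without shCTL 1 and 3 without any of the other libraries). The lower calls numbered 3 to 5 throughout. With each library left out in turn, the higher calls over all tested genes ran between 1383 (without shHSF1 2) and 2374 (without shHSF1 3), with 1404 without shCTL 3, and the block gave 3257. HSF1 kept its call in all 18 alternatives, as did PSMA3, PSMB5, PSMC1, PSMD5 and PSMD10. Of the single proteasome values under all alternatives, 28 changed sign, of which 2 (PSMD1 after centring) lost a call and 2 (PSMD14 after centring) gained one. Another 18 lost their call and 30 gained one with the same sign, and 644 did neither.

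Changes of sign under centring, with or without the block, gave log2 fold changes of 0.27 for PSMD14, 0.13 for PSMD1, 0.14 for NFE2L2, -0.048 for PSMA2, -0.066 for PSMB2, -0.049 for PSMD8 and -0.019 for PSMD9. Median scaling gave -0.012 for PSMA2 and -0.0048 for PSMD8, voom gave -0.021 for PSMA2 and -0.015 for PSMD8, and quantile normalization gave -0.0069 for PSMD8. Leaving out 1 library gave -0.10 to 0.18 for PSMA2, -0.027 to 0.17 for PSMA5, -0.0058 to 0.28 for PSMB4, -0.036 to 0.019 for PSMD6, -0.060 to 0.077 for PSMD8 and -0.12 to 0.093 for PSME3. Apart from PSMD1 and NFE2L2 these genes were not called as reported. The cause was not tested. The planned count-model alternatives were not run, because the deposited values are RPKM.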
